A study of Homo sapiens with 8 samples.

Results

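The TGF-beta and BMP genes described here are 10 of the 36474 genes counted in LNCaP cells given asporin (ASPN), and were chosen by name because ASPN is known to bind TGF-beta. They comprise the ligand TGFB1, the receptors TGFBR1, TGFBR2, TGFBR3 and BMPR1A, the signal transducers SMAD3 and SMAD7, and the target genes ID1, ID2 and ID3. All 10 had a row in the count table, and all 10 passed the filter on low counts that left 21071 genes for testing. LNCaP is an established line from a metastatic human prostate carcinoma. Cells were starved for 6 to 12 h in medium lacking serum and calcium, and then received recombinant ASPN at 100 ng/mL. RNA was sequenced at the start (0 h, 2 libraries) and after 12 h and 24 h (3 libraries each). No library kept for 12 h or 24 h without ASPN was analysed here, so the time in medium and the effect of ASPN cannot be told apart, and both later time points were set against the same time-0 libraries. The labels call the libraries of a group biological replicates, and the study's methods describe cells plated in replicate wells. Neither says whether the wells came from separate cultures, so the p values measure the spread between these libraries.

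TGF-beta ligands bind the type II receptor TGFBR2, which activates the type I receptor TGFBR1, which in turn phosphorylates SMAD2 and SMAD3. BMP ligands use BMPR2 and type I receptors such as BMPR1A, and pass the signal through SMAD1, SMAD5 and SMAD9. SMAD4 joins both branches, while SMAD6 and SMAD7 are inhibitory SMADs whose transcription is itself a target of the pathway. In prostate epithelium TGF-beta is known as a growth inhibitor, and lowered levels of its receptors are known from prostate cancers.

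The 8 libraries held 73406825 to 96962135 counts, and mitochondrial genes took 6.20% to 7.32% of them. The labelled cell type carried its markers, since all 9 luminal prostate and LNCaP genes examined were expressed, from 7.85 RPKM (reads per kilobase of exon, scaled to library size) for TMPRSS2 to 342 for FOLH1. Of the markers of other cell types, the endothelial gene VWF was counted at 1.35 RPKM, and the fibroblast genes LUM at 0.498, PDGFRB at 0.108 and COL3A1 at 0.0800. The other endothelial genes PECAM1 and CDH5 had at most 2 and 5 counts in any library, the fibroblast gene THY1 had at most 9, and the leukocyte genes PTPRC, CD3E and CD68 had at most 7, 1 and 16. Levels of single genes are given in CPM, that is counts divided by library size. The limit that a count of 0 sets, taken as 3 counts, lay between 0.0309 and 0.0409 CPM and covers counting error only.

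The sequence ahead of the inhibitory SMAD genes is shown first because it holds the letters of a palindrome of SMAD-binding boxes. Whether the pathway uses these matches was not tested. The palindrome GTCTAGAC, formed by a pair of SMAD-binding boxes, was searched on both strands in the 2000 bases upstream of each RefSeq start on GRCh38.p14. It was found ahead of 1.38% of all genes and ahead of 1 of the 10 members, SMAD7, on the minus strand of chromosome 18 (chr18:48952210-48952233), with its first base at position -1260 from one of 3 annotated starts. SMAD6, the other inhibitory SMAD, is not a member but also held it, on the plus strand of chromosome 15 (chr15:66702216-66702235) at position -12. The non-members SMAD9, BAMBI and PMEPA1, also searched, did not hold it. Both stretches are written from 5′ to 3′ on the strand of the gene, with the palindrome in capitals.
SMAD7: gacagggtGTCTAGACggccacgt
SMAD6: gccaaagtGTCTAGACtggc
The GC-rich SMAD element GGCGCC was ahead of 7 of the 10 members and of 40.8% of all genes. A gene counted if any of its starts had a match, so genes with several starts had more windows searched. The element was ahead of 2 of 8 starts of TGFBR1, 1 of 5 of SMAD3, 2 of 3 of SMAD7 and 0 of 2 of TGFBR2. Over all starts its share was 38.7%. Joined to a SMAD box as in the BMP response element known from ID1 promoters (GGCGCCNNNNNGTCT), it was ahead of 0 of 10 members and of 0.366% of genes. A match of letters is a description and not a measured site, and the lack of one covers these letters in this window alone.

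The core promoters of the ID genes, the classical targets of BMP signalling, are shown as the last 60 bases before the start. The TATA box TATAAA, in capitals, was present in these 60 bases of ID1 (chr20:31605229-31605288, plus strand) and absent from those of ID2 (chr2:8681996-8682055, plus strand) and ID3 (chr1:23559502-23559561, minus strand). It stood in the same window of 2.78% of all RefSeq starts. The search took these exact letters alone. The printed bases of ID2 hold the near match gataaa and those of ID3 the near match tataag. The absence of TATAAA is therefore not a lack of any TATA-like sequence.
ID1: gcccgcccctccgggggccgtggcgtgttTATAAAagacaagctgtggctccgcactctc
ID2: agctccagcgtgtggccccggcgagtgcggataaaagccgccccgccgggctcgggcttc
ID3: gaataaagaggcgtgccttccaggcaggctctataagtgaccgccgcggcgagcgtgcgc

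Scaled to exon length, the receptors of the pathway were present at unequal levels and its ligand was nearly absent. TGFBR1 was the member with the highest mean over the 8 libraries, at 4.32 RPKM (range 4.03 to 5.11), above 65.5% of the genes tested. BMPR1A followed at 2.81 RPKM (2.65 to 2.98), SMAD7 at 2.35 (2.07 to 2.65) and ID2 at 2.17 (1.86 to 2.32). The ranges of SMAD7 and ID2 overlapped, and those of BMPR1A and SMAD7 met at 2.65 RPKM, so these neighbours were not separated by their spread over libraries. TGFBR3 (1.36 RPKM, range 1.23 to 1.45), SMAD3 (1.32, range 1.20 to 1.40) and ID3 (0.973, range 0.683 to 1.24) came next, again with overlapping ranges. With the length of the longest transcript in place of the union of exons, SMAD3 (2.04) stood above TGFBR3 (1.80).

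The lower end of the order was held by ID1 (0.507 RPKM, range 0.401 to 0.629), TGFBR2 (0.256, range 0.181 to 0.305) and TGFB1 (0.0270, range 0.00696 to 0.0505), none of which overlapped its neighbours. TGFB1 lay below all but 3.48% of the genes tested. The type II TGF-beta receptor was therefore the least abundant receptor among the members. The ratio of TGFBR1 to TGFBR2 per length was 15.2 and 17.1 in the time-0 libraries and 14.9 to 22.5 over all 8. The corresponding type II receptor for BMPs, BMPR2, stood at 11.8 RPKM, above every receptor among the members, and the activin type I receptor ACVR1B stood at 12.1 RPKM.

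**Figure D1:**
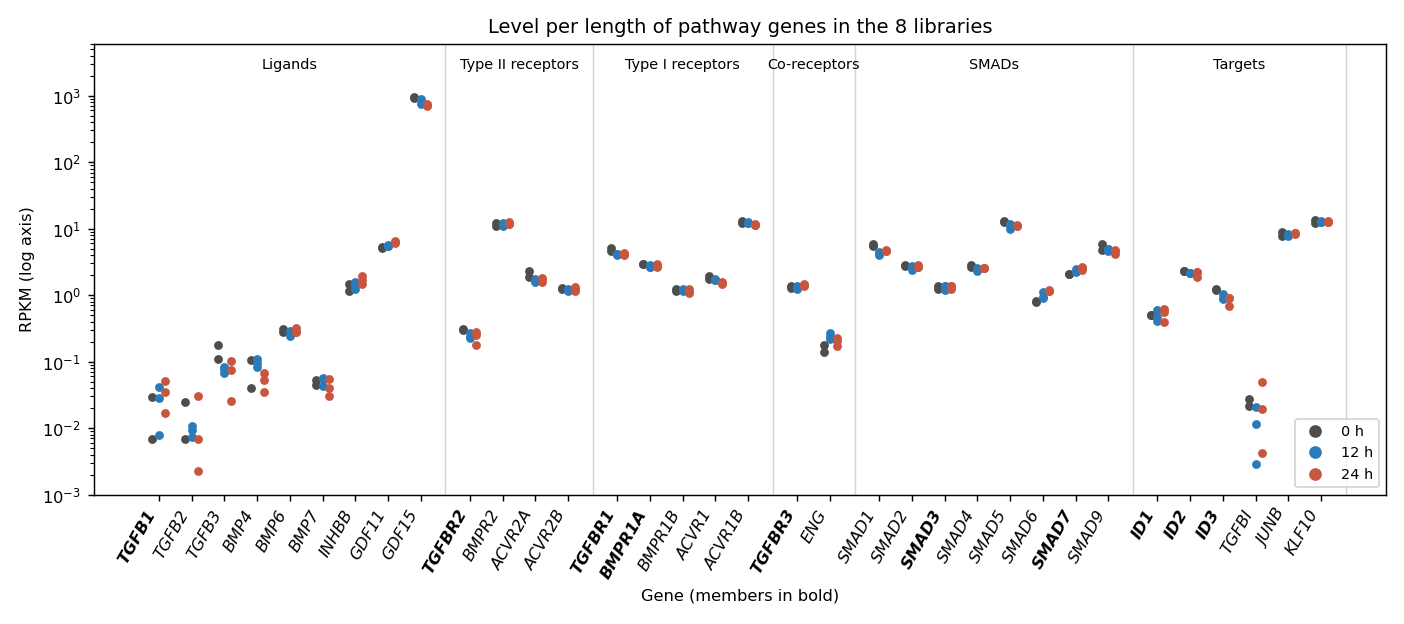
Level per length (RPKM, log axis) of the 10 members, named in bold, and of other genes of the pathway in each of the 8 libraries, coloured by hours with ASPN. TGFB1 lies between 0.00696 and 0.0505 RPKM and TGFBR2 between 0.181 and 0.305, while TGFBR1 lies between 4.03 and 5.11.

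The question put to the time course was whether transcripts of the pathway that ASPN can bind changed during exposure. A gene passed the test at an adjusted p of at most 0.05 in edgeR, Benjamini-Hochberg adjusted over all genes tested, and was called if it also changed at least 1.5-fold. Between 12 h and 0 h, 0 members rose, 1 fell and 9 did not pass, whereas 11.6% of all genes passed (4.85% higher and 6.75% lower). Between 24 h and 0 h, 1 member rose, 1 fell and 8 did not pass, against 16.3% of all genes (7.82% higher and 8.49% lower). Between 24 h and 12 h none of the 10 passed in edgeR, 0 of 10 also had an unadjusted p under 0.05 and DESeq2 gave 0 as well, against 2.72% of all genes (1.12% higher and 1.61% lower). No member changed 1.5-fold with an adjusted p within the threshold, and this was so of all but 1.05%, 2.45% and 0.18% of genes in the comparisons of 12 h with 0 h, 24 h with 0 h and 24 h with 12 h.

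The members that passed were TGFBR1, lower at both times, and SMAD7, higher at 24 h. Without replicate 1 of the time-0 group, whose place is then taken by a single library, 0 members passed in either comparison with 0 h, and the share of all genes that passed was 2.79% at 12 h and 7.13% at 24 h. The median log2 fold change of the 10 members was -0.06 at 12 h and -0.02 at 24 h, beside -0.00069 and -0.0031 for all genes. The time-0 and later libraries did not overlap for 6 of the 10 members in each of these comparisons, where 36.9% of all genes did not overlap at 12 h and 43.2% at 24 h. Between 24 h and 12 h the libraries overlapped for all 10 members, and 19.6% of all genes did not overlap.

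**Figure D2:**
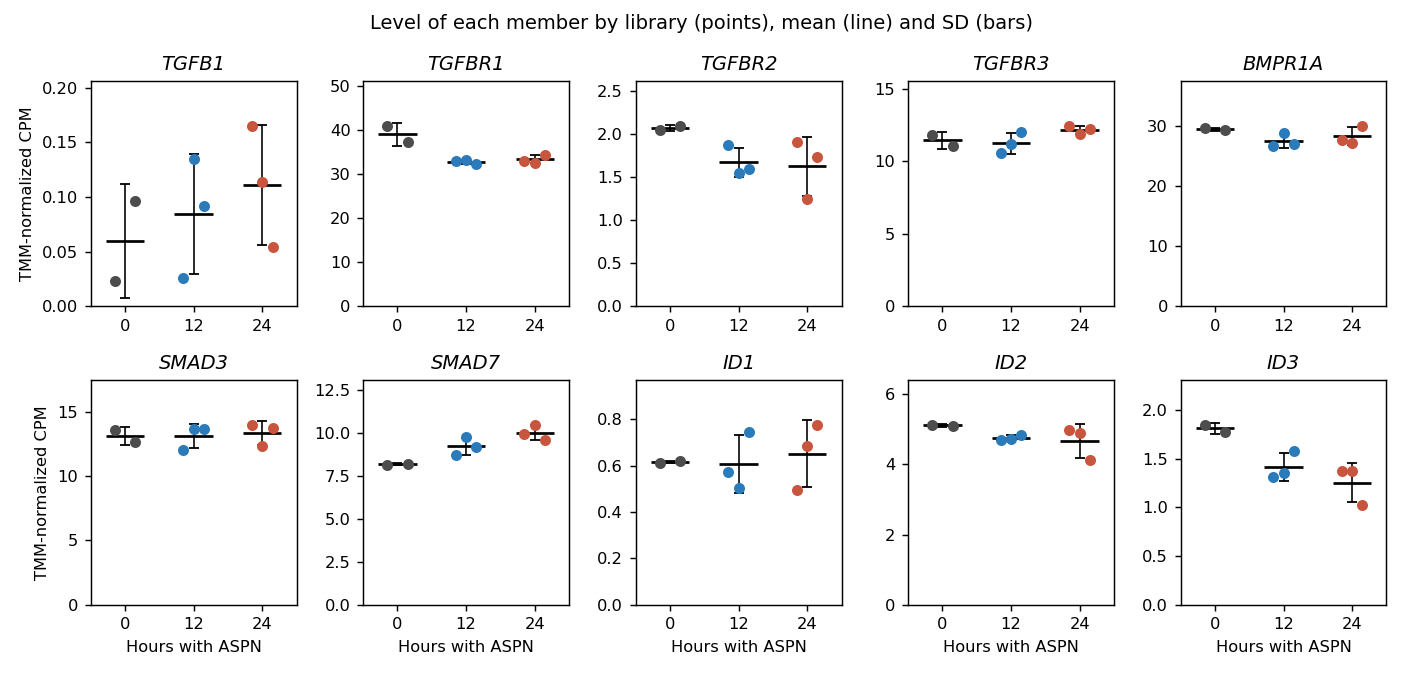
TMM-normalized CPM of each member in each library (points) at 0, 12 and 24 h with ASPN, with the group mean (line) and SD (bars); each axis starts at 0. The 12 h and 24 h points of TGFBR1 lie between 32.2 and 34.3 CPM, below both time-0 points, and the 24 h points of SMAD7 lie between 9.59 and 10.5, above both time-0 points.

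TGFB1 (ENSG00000105329.11, chr19:41301587-41353922, minus strand) encodes the founding TGF-beta ligand. It was counted 2 and 7 times in the time-0 libraries, 2, 12 and 8 times at 12 h, and 15, 11 and 4 times at 24 h. The groups overlapped throughout, and the 95% interval of the log2 fold change at 24 h ran from -0.94 to 2.83 around an estimate of 0.95, so a change of less than several fold was not detectable at this depth. The log2 estimate at 12 h was 0.55 with an adjusted p of 0.794 in edgeR. A stretch of 6.59% of its exons lies opposite exons of HNRNPUL1, and the sources used here do not say whether strand was used in counting. The other TGF-beta ligand genes were low as well, at 0.0124 RPKM for TGFB2 and 0.0899 for TGFB3.

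TGFBR1 (ENSG00000106799.13, chr9:99104038-99154192, plus strand) encodes the type I receptor kinase that phosphorylates SMAD2 and SMAD3. It was measured at 40.8 and 37.1 CPM in the time-0 libraries, at 33.0, 33.1 and 32.2 CPM at 12 h, and at 33.0, 32.6 and 34.3 CPM at 24 h. Every later library lay below both time-0 libraries, and the 12 h and 24 h libraries overlapped. The group means were 39.0 ± 2.60 CPM (SD, n = 2) at 0 h, 32.7 ± 0.498 (n = 3) at 12 h and 33.3 ± 0.904 (n = 3) at 24 h.

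TGFBR1 thus fell to 0.84 of its starting level at 12 h (log2 fold change -0.25, SE 0.0586, adjusted p = 0.00365 in edgeR). It stood at 0.853 of that level at 24 h (log2 fold change -0.23, SE 0.0586, adjusted p = 0.00549). From 12 h to 24 h the log2 difference was 0.02 (95% interval -0.08 to 0.13). The fall rests on time-0 replicate 1, the higher of the pair: without it the log2 fold changes were -0.18 at 12 h (adjusted p = 0.189 in edgeR) and -0.16 at 24 h (adjusted p = 0.177), and the direction stayed the same. In bulk RNA, fewer cells carrying a transcript and less of it per cell cannot be told apart.

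TGFBR2 (ENSG00000163513.19, chr3:30606601-30694142, plus strand) encodes the type II receptor that binds TGF-beta first. Its level was 2.04 and 2.09 CPM at 0 h, 1.87, 1.55 and 1.59 CPM at 12 h and 1.90, 1.24 and 1.73 CPM at 24 h, from 120 to 180 counts per library. All later libraries were below both time-0 libraries, but they spread widely at 24 h. The log2 fold change was -0.31 at 12 h (95% interval -0.72 to 0.09, adjusted p = 0.37 in edgeR) and -0.35 at 24 h (-0.76 to 0.05, adjusted p = 0.265). Neither passed, and both intervals include the change of TGFBR1.

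TGFBR3 (ENSG00000069702.11, chr1:91680343-91906335, minus strand) encodes betaglycan, the co-receptor that presents TGF-beta to TGFBR2. The libraries held 11.8 and 11.0 CPM at 0 h, 10.5, 11.2 and 12.0 CPM at 12 h and 12.4, 11.9 and 12.2 CPM at 24 h. The 12 h libraries spanned the time-0 libraries, and the 24 h libraries lay just above them. The log2 fold change was -0.02 at 12 h and 0.09 at 24 h, with a 95% interval of -0.08 to 0.26 for the latter (adjusted p = 0.56 in edgeR).

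BMPR1A (ENSG00000107779.14, chr10:86756601-86932825, plus strand) encodes a type I receptor for BMPs. It was measured at 29.7 and 29.3 CPM at 0 h, at 26.7, 28.8 and 27.0 CPM at 12 h, and at 27.6, 27.2 and 30.0 CPM at 24 h. The 12 h libraries lay below the time-0 libraries, and a 24 h library lay above them. The log2 fold change was -0.10 at 12 h (95% interval -0.23 to 0.03, adjusted p = 0.356 in edgeR) and -0.06 at 24 h (adjusted p = 0.592).

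SMAD3 (ENSG00000166949.17, chr15:67063763-67195173, plus strand) encodes the receptor-activated transcription factor of the TGF-beta branch. Its level was 13.6 and 12.6 CPM at 0 h, 12.0, 13.6 and 13.7 CPM at 12 h and 14.0, 12.3 and 13.7 CPM at 24 h. The groups overlapped in every comparison. The 95% interval of the log2 fold change was -0.17 to 0.17 at 12 h and -0.15 to 0.20 at 24 h (adjusted p = 0.997 and 0.9 in edgeR), and both intervals lay well inside 1.5-fold.

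SMAD7 (ENSG00000101665.10, chr18:48919853-48950965, minus strand) encodes the inhibitory SMAD that blocks TGFBR1 and promotes its degradation, and it is the member with the SMAD palindrome printed above. The libraries held 8.15 and 8.21 CPM at 0 h, 8.71, 9.74 and 9.18 CPM at 12 h and 9.96, 10.5 and 9.59 CPM at 24 h. All 6 later libraries lay above both time-0 libraries, and the 12 h and 24 h libraries overlapped.

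SMAD7 rose 1.22-fold at 24 h (log2 fold change 0.29, SE 0.0914, 95% interval 0.11 to 0.48, adjusted p = 0.0248 in edgeR). At 12 h its log2 fold change was 0.17 (95% interval -0.01 to 0.36, adjusted p = 0.26), and between 24 h and 12 h it was 0.12 (adjusted p = 0.565). The 24 h value lost its call without time-0 replicate 1 (adjusted p = 0.169 in edgeR), without the unnumbered time-0 library (0.0761), without 24 h replicate 1 (0.0624) and without 24 h replicate 2 (0.101). Its log2 fold change stayed between 0.25 and 0.32 over all alternatives.

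ID1 (ENSG00000125968.9, chr20:31605283-31606515, plus strand), like the other ID genes, encodes an inhibitor of basic helix-loop-helix factors. Its level was 0.613 and 0.619 CPM at 0 h, 0.571, 0.505 and 0.744 CPM at 12 h and 0.495, 0.682 and 0.776 CPM at 24 h, from 44 to 66 counts per library. The groups overlapped, and the time-0 libraries lay within the range of each later group. The 95% interval of the log2 fold change was -0.66 to 0.62 at 12 h and -0.57 to 0.71 at 24 h (adjusted p = 0.979 and 0.921 in edgeR), so changes of up to 1.5-fold were not detectable at this depth.

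ID2 (ENSG00000115738.10, chr2:8678845-8684461, plus strand) was the most abundant ID gene per length. The libraries held 5.13 and 5.09 CPM at 0 h, 4.69, 4.71 and 4.84 CPM at 12 h and 4.99, 4.90 and 4.13 CPM at 24 h. Each later library lay below both time-0 libraries. The log2 fold change was -0.11 at 12 h (95% interval -0.35 to 0.14, adjusted p = 0.663 in edgeR) and -0.13 at 24 h (-0.37 to 0.12, adjusted p = 0.557). Of its exons, 6.55% lie opposite those of the antisense gene ID2-AS1.

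ID3 (ENSG00000117318.9, chr1:23557926-23559501, minus strand) was the ID gene with the lowest p value against 0 h. It was measured at 1.85 and 1.77 CPM at 0 h, at 1.31, 1.36 and 1.58 CPM at 12 h, and at 1.37, 1.38 and 1.02 CPM at 24 h, from 75 to 163 counts per library. All 6 later libraries lay below both time-0 libraries. The log2 fold change was -0.36 at 12 h (95% interval -0.78 to 0.07, adjusted p = 0.313 in edgeR) and -0.52 at 24 h (-0.95 to -0.10, unadjusted p = 0.0175, adjusted p = 0.0878). ID3 did not pass over all genes tested, at 24 h or at 12 h.

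**Figure D3:**
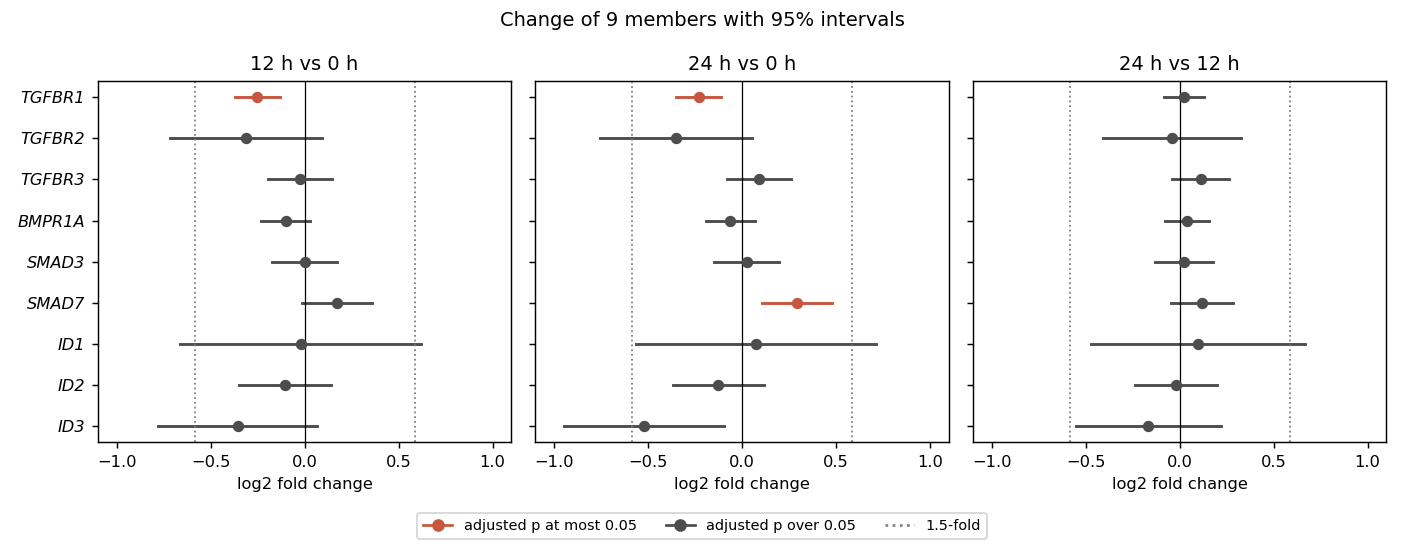
Log2 fold change (points) with its 95% interval (lines) of 9 members in the 3 comparisons, with dotted lines at 1.5-fold; TGFB1, whose intervals run past the axis, is left out. TGFBR1 at 12 h and 24 h (-0.25 and -0.23) and SMAD7 at 24 h (0.29) are coloured as past an adjusted p of 0.05, and all 3 points lie inside the 1.5-fold lines.

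The course over libraries of the members that passed was compared with that of 13463 other genes whose normalized counts averaged 100 or more, as a description over 8 libraries that share the time-0 samples. The transcripts most like TGFBR1 in log2 CPM were EPC2 (Pearson r = 0.991) and UFSP2 (r = 0.985). Those most like SMAD7 were ZNF814 (r = 0.988) and WDR77 (r = 0.978).

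The rest of the pathway was followed through a list of 89 further genes, of which 87 had a row in the table and 72 were tested. The list was drawn up with earlier results of these data known, so its shares beside those of all genes are a description only. At 12 h, 2 of the 72 rose, 11 fell and 59 did not pass, that is 18.1% passed beside 11.6% of all genes. At 24 h, 6 rose, 15 fell and 51 did not pass, 29.2% beside 16.3% of all genes, and the median log2 fold change was -0.07. Between 24 h and 12 h, 0 rose, 4 fell and 68 did not pass, 5.56% beside 2.72% of all genes. Exons of THBS1 (7.58%), SMAD1 (5.30%) and CDKN1A (4.87%), like those of SMAD3 (1.82%), lie partly opposite other genes, whose reads may be included. Without time-0 replicate 1, 6 pathway genes passed at 12 h and 10 at 24 h, where 2.79% and 7.13% of all genes did. Without 24 h replicate 2, 2 pathway genes and 1.06% of all genes passed between 24 h and 12 h.

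Among the other SMAD genes the inhibitory and the BMP-activated ones moved in opposite directions at 24 h. SMAD6, which preferentially blocks BMP receptors and carries the second palindrome printed above, was measured at 6.76 and 7.10 CPM at 0 h, at 8.08, 9.61 and 7.76 CPM at 12 h, and at 9.88, 10.1 and 9.93 CPM at 24 h. The groups at 0 h, 12 h and 24 h did not overlap. SMAD6 rose at 24 h with a log2 fold change of 0.52 (SE 0.1, adjusted p = 0.000246 in edgeR), and it stayed within the threshold in every alternative, while its value of 0.29 at 12 h missed it (adjusted p = 0.0524).

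SMAD1, the BMP-activated SMAD with the smallest p value, was measured at 41.3 and 38.4 CPM at 0 h, at 28.5, 30.9 and 32.0 CPM at 12 h, and at 33.9, 32.6 and 32.7 CPM at 24 h. It fell at both times, with a log2 fold change of -0.39 at 12 h (adjusted p = 3.81e-05 in edgeR) and -0.27 at 24 h (adjusted p = 0.00169). The fall at 24 h lost its call without time-0 replicate 1 (adjusted p = 0.0731), and the fall at 12 h kept it in every alternative. The other BMP-activated genes also fell at 24 h, SMAD5 by 0.20 on the log2 scale (adjusted p = 0.00783 in edgeR) and SMAD9 by 0.25 (adjusted p = 0.0123), and neither passed without time-0 replicate 1 (adjusted p = 0.114 and 0.535). Without 24 h replicate 1 SMAD9 was over the threshold (adjusted p = 0.0922) and SMAD5 just over it (0.05). SMAD4, the common partner, fell by 0.20 at 12 h (adjusted p = 0.0158), a call lost without time-0 replicate 1 (adjusted p = 0.33), without 12 h replicate 3 (0.0635) or 1 (0.0637), and when the compared time points were fitted alone (0.0558).

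Of the 11 other ligand genes tested, 2 rose and 2 fell at 24 h. GDF15, a distant member of the family and the most abundant one per length here (819 RPKM), fell from 1977 CPM at 0 h to 1509 CPM at 24 h (log2 fold change -0.39, SE 0.0528, adjusted p = 3.84e-06 in edgeR). INHBE, an inhibin beta chain, fell from 7.16 to 4.40 CPM (log2 fold change -0.70, SE 0.115, adjusted p = 3.26e-05) and was 1 of 3 pathway genes called at 1.5-fold, although 16.4% of its exons lie opposite another gene. GDF11 (0.27, adjusted p = 0.000333) and INHBB (0.41, adjusted p = 0.0341) were the ligand genes that rose, the latter not without time-0 replicate 1 (adjusted p = 0.492), 24 h replicate 1 (0.194) or 24 h replicate 2 (0.0737).

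Of the 9 tested genes listed under TGF-beta latency and activation, 2 rose and 2 fell at 24 h. THBS1, thrombospondin 1, a known activator of latent TGF-beta, fell from 16.2 to 10.2 CPM (log2 fold change -0.67, SE 0.101, adjusted p = 1.36e-05 in edgeR), and every later library lay below both time-0 libraries. LTBP2, by name a member of the latent TGF-beta binding protein family, rose from 10.3 to 13.6 CPM (0.39, SE 0.0886, adjusted p = 0.00162 in edgeR). The call was lost without the unnumbered time-0 library, where the log2 fold change was 0.27. Whether the LTBP2 protein binds TGF-beta was not tested.

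Of the 9 further receptor genes tested, 0 rose and 3 fell at 24 h. ACVR1, a type I receptor for BMPs and activins, fell by 0.28 on the log2 scale (SE 0.0739, adjusted p = 0.00721 in edgeR). AMHR2, the type II receptor of anti-Müllerian hormone, fell by 0.53 (SE 0.144, adjusted p = 0.00933) and differed between 24 h and 12 h by -0.52 (adjusted p = 0.0221; 0.115 to 0.121 without 12 h replicate 1, 24 h replicate 2 or 24 h replicate 3). Neither fall against 0 h passed without time-0 replicate 1, with adjusted p values of 0.231 for ACVR1 and 0.207 for AMHR2. BMPR2, the type II BMP receptor, gave a log2 fold change of 0.06 at 24 h (adjusted p = 0.486).

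Among 17 inhibitors and regulators inside the cell, 1 rose and 2 fell at 24 h. SKI, a co-repressor that binds SMADs, rose from 86.9 to 105 CPM (log2 fold change 0.27, SE 0.0484, adjusted p = 0.000109 in edgeR). TGIF1, also a SMAD co-repressor, fell from 44.3 to 36.3 CPM (-0.29, SE 0.06, adjusted p = 0.000725), so the co-repressors did not move one way. BAMBI, a pseudoreceptor that dampens the pathway, rose at 12 h by 0.20 (adjusted p = 0.00468 in edgeR). Its log2 fold change of 0.13 at 24 h did not pass (adjusted p = 0.0561). Of the extracellular antagonists, 3 were tested and none passed in edgeR at either time (0 at an unadjusted p under 0.05). FSTL3, which binds activins and stood at 4.92 RPKM, gave a log2 fold change of -0.0051 (SE 0.0752) at 24 h. The other antagonists tested were barely counted, with a log2 fold change of -0.87 (SE 0.557, adjusted p = 0.342) for BGN and 0.55 (SE 0.427, adjusted p = 0.456) for CHRD at 24 h.

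Of the 14 tested genes listed as TGF-beta targets, 0 rose and 3 fell at 24 h. CDKN1A, the cell-cycle inhibitor p21 that TGF-beta is known to induce in epithelium, was measured at 303 and 302 CPM at 0 h, at 220.2, 191.0 and 213.0 CPM at 12 h, and at 171, 171 and 175 CPM at 24 h. The groups did not overlap. CDKN1A fell with a log2 fold change of -0.54 at 12 h (adjusted p = 1.06e-08 in edgeR) and -0.81 at 24 h (SE 0.0484, adjusted p = 1.85e-13), and differed by -0.27 between 24 h and 12 h (adjusted p = 0.000302). Many other stimuli also regulate it, and what set its level was not tested.

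VIM, vimentin, fell from 8.28 to 5.80 CPM at 24 h (-0.52, SE 0.116, adjusted p = 0.0015 in edgeR), with 24.6% of its exons opposite other genes. CCN2, a matricellular protein that TGF-beta is known to induce, had 7 counts in all 8 libraries together, so its response was not detectable at this depth. Of the BMP targets outside the ID genes, 3 were tested and none passed in edgeR (0 at an unadjusted p under 0.05), with values of -0.73 (SE 0.434, adjusted p = 0.296) for HEY1 and 0.15 (SE 0.188, adjusted p = 0.683) for MSX2 at 24 h.

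**Figure D4:**
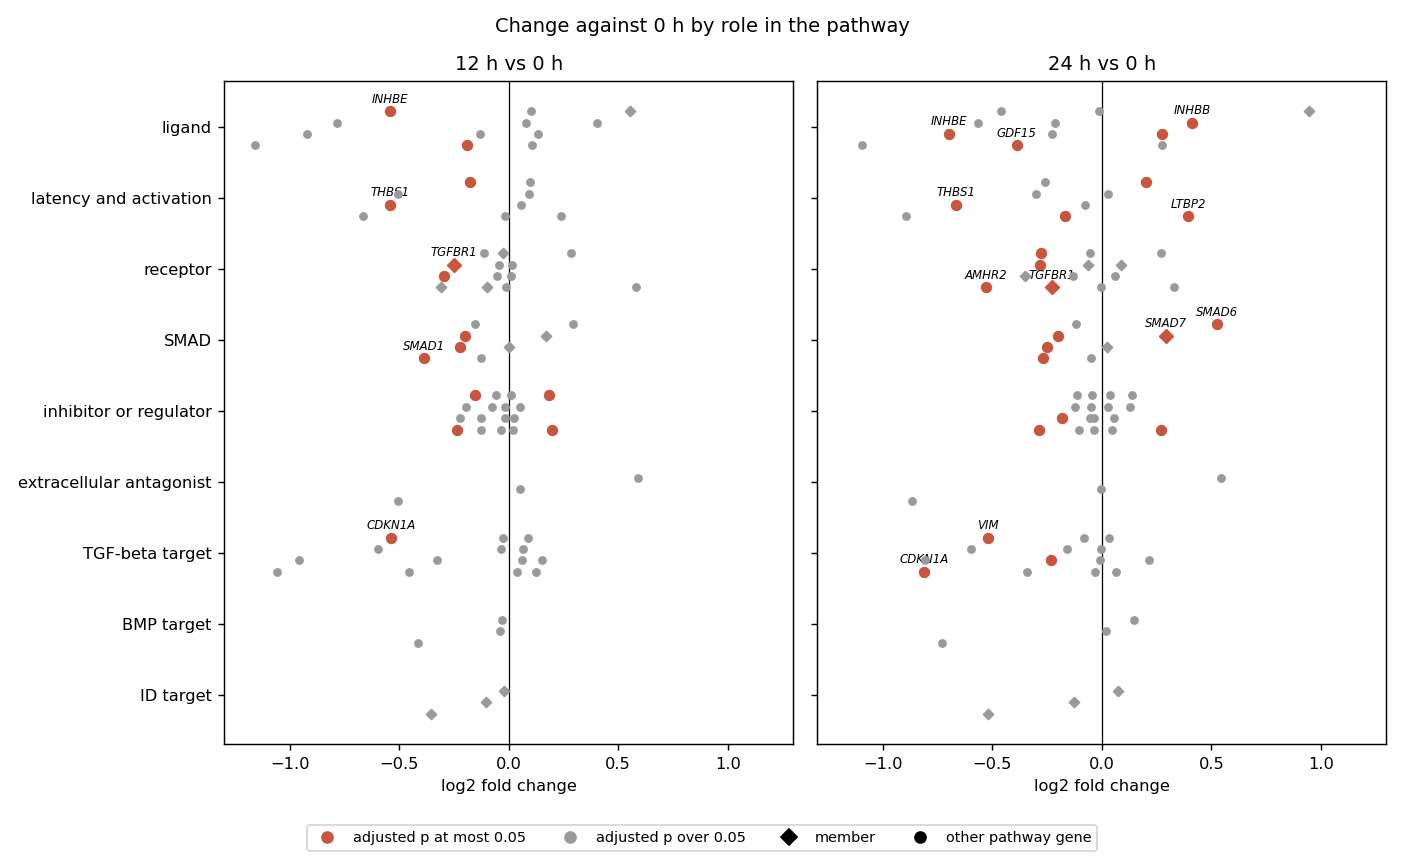
Log2 fold change against 0 h of the 10 members (diamonds) and 72 further pathway genes (circles) by role, at 12 h and at 24 h, with genes past an adjusted p of 0.05 in edgeR in colour. At 24 h SMAD6 (0.52) and SMAD7 (0.29) lie to the right as coloured points and SMAD1, SMAD5 and SMAD9 to the left, while CDKN1A (-0.81), INHBE (-0.70) and THBS1 (-0.67) are the coloured points farthest to the left.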

How the data were processed

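Whole transcriptomes of LNCaP cells were sequenced as paired reads. Per the processing notes and the study's methods, the authors trimmed reads with cutadapt, aligned them to GRCh38 with STAR and deposited raw read counts per GENCODE gene from featureCounts, with no normalization. Strand and multi-mapping options are not given in the sources used here. The 8 columns were assigned by time and number. A time-0 column bears a number that no time-0 label has, and is called unnumbered. The study's methods state that a time-0 LNCaP replicate failed quality control and was left out, without giving its number.

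Testing used edgeR 4.0.16 in R 4.3.3 (robust quasi-likelihood F test, TMM, filterByExpr), with 1 coefficient per time point over 8 libraries, and Benjamini-Hochberg adjustment over 21071 genes. The F statistic gave the SE and 95% interval of each log2 fold change. The biological coefficient of variation was 5.59%. CPM are TMM-normalized, and RPKM divide by the union of exons in GENCODE, whose coordinates equalled the file's for 30996 of 30996 shared identifiers. Thresholds followed the study. Replicate pairs differed by chi-square per degree of freedom of 5.10 to 13.8, so none was a duplicate.

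The members, the pathway list and the markers were chosen with earlier results of these data known. The rule named all 10 members, pathway genes called at 1.5-fold, and 2 per role with the smallest p at 24 h against 0 h. SMAD4, SMAD5, SMAD9, GDF11, INHBB, BMPR2, BAMBI, FSTL3, CCN2 and ACVR1B were added after their values were seen. TGFB2 and TGFB3 are also named outside the rule, for their levels. USP15, ITGAV, ACVR2A and SMURF2 are named only for calls that changed under the alternatives. Promoter sequences are from RefSeq (all 10 members matched). The procedure was checked on simulated counts. Alternatives were scaling by RLE or the upper quartile, no filter or a stricter one (normalized counts averaging 100 or more), DESeq2 1.42.0, the compared time points alone, a replicate block and leaving out each library, with a block by the numbers in the column names added after the data were seen.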

Additional observations from a re-analysis of the deposited data

How the results depend on the processing

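RLE and upper-quartile normalization, both filters, DESeq2, the compared time points alone and both blocks kept the direction of every member value they gave. TGFB1 and ID1 were too low for the stricter filter and had no value there. These settings kept 195 member values on the same side of the threshold with 1 lost. Of the pathway genes that had passed, 254 values kept it and 12 lost it under these settings: USP15 at 12 h under several, SMAD4, ITGAV and ACVR2A at 12 h with the compared time points alone, SMURF2 at 24 h without the filter, and others under the block by column number. Leaving out 1 library moved the number of members that passed between 0 and 1 at 12 h and between 0 and 2 at 24 h, and that of pathway genes between 6 and 13 at 12 h, 10 and 24 at 24 h, and 2 and 6 between 24 h and 12 h. Of the 234 member values with a library left out, 208 were the same, 6 lost the threshold and 20 changed sign, all in values that had not passed. The cause was not tested.

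The log2 fold changes that changed sign ranged, with a library left out, from -0.177 to 1.85 for TGFB1, -0.0698 to 0.0281 for TGFBR3, -0.0403 to 0.0656 for SMAD3 and -0.194 to 0.0969 for ID1 at 12 h, and from -0.0222 to 0.0813 for SMAD3 and -0.0639 to 0.239 for ID1 at 24 h. Between 24 h and 12 h they ranged from -0.0136 to 0.697 for TGFB1, -0.177 to 0.119 for TGFBR2, -0.00477 to 0.0727 for BMPR1A, -0.0401 to 0.0729 for SMAD3, -0.0423 to 0.271 for ID1 and -0.0695 to 0.0577 for ID2.

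The replicate block could be fitted for 24 h against 12 h, over the libraries of these time points alone, and gave 0 members and 6 pathway genes past the threshold. The main fit over 8 libraries gave 0 and 4, so these fits also differ in the libraries used. Of all genes, 4.39% passed with the block, 3.36% with the same time points and no block, and 2.72% in the main fit. Deviations of same-numbered libraries correlated at 0.102, 0.028 and 0.0284. The 12 h replicates 1 and 3 correlated best with the 24 h library of their own number, and 12 h replicate 2 with 24 h replicate 3 (0.052). All these correlations were weak, and they do not settle whether same-numbered libraries were paired. Against 0 h, a replicate block by the number in the column names, added after seeing the data since a time-0 column bears a number that no time-0 label has, gave 1 member at 12 h and 1 at 24 h, with SMAD7 at an adjusted p of 0.0893 in edgeR, and 11 and 20 pathway genes.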
